A study of Arabidopsis lyrata and Arabidopsis thaliana with 9 samples.

Results

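The growth-regulating factors GRF1 to GRF9 and GIF1, the coactivator they bind, were described in inflorescences of Arabidopsis thaliana. These 10 genes were taken by locus from the 27176 gene models counted in the A. thaliana tables. Each gene had 1 counted model, and all 10 had counts. The series holds 9 directional RNA-seq libraries in 3 groups of 3 biological replicates, from leaves and inflorescences of A. lyrata and from inflorescences of A. thaliana. The A. thaliana group was wild-type Col-0, a laboratory accession, sampled after bolting (once the flowering stem had grown out) from plants kept in a greenhouse in long days. It is used alone here. The A. lyrata tables identify genes by numbers that were not paired with loci here, so the A. lyrata counterparts of these genes were not analysed. The 3 libraries, called libraries 1, 2 and 3 by their replicate labels, held 6263918, 14004158 and 6330211 counts. The tissue label was checked against marker genes. The floral organ identity genes AP1, AP3, PI, AG and SEP3 had mean levels of 103 to 359 TPM (counts divided by transcript length and scaled to sum to 1000000 per library). LFY, the floral meristem gene, stood lower at 7.004, 2.66 and 2.62 TPM in libraries 1, 2 and 3. Among markers of other organs, the seed storage genes CRU3 and SESA1 had no counts, and the root epidermis gene WER and the seed storage gene CRA1 stayed at 0.601 TPM or less in every library.

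GRFs are plant transcription factors with a pair of conserved domains. QLQ binds a GIF coactivator, and WRC carries a zinc finger and the nuclear signal. GRF and GIF proteins act together with chromatin remodellers of the SWI/SNF class to keep cells of young organs dividing, and mutants that lack them have narrow leaves and petals and defects in anthers, pistils and ovules. The microRNA miR396 pairs with a site in most GRF messages and limits them as organs mature. A table of messenger RNA levels shows the balance of these processes, not their rates.

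The sequences of the miRNA and of its sites are shown because they divide the family. The 2 mature miR396 sequences of A. thaliana, from the TAIR10.1 genome of RefSeq, are given 5′ to 3′ as RNA with the seed (bases 2 to 8) in capitals. They share that seed. MIR396a lies on the minus strand (mature sequence at chr2:4142443-4142463) and MIR396b on the plus strand (chr5:13611808-13611828). The hairpin genes themselves were not analysed here.
ath-miR396a-5p: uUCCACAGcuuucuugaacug
ath-miR396b-5p: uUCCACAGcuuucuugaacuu

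A match was defined as the reverse complement of either miR396 in the spliced transcript with at most 4 differences, of which at most 1 was an unpaired (bulged) base; G:U pairs counted as differences. Of the 9 GRF transcripts, 7 held a match, against 1.14% of the 26690 transcripts searched. GIF1, GIF2 and GIF3 held none. Each of the 7 matches had 2 or 3 differences, and in every one of them 1 difference was an extra base in the message. At most 3 differences were found in 0.124% of all transcripts. With 3 mismatches at most and no bulge, 0 GRFs and 0.0375% of all transcripts held a match. The matches follow 5′ to 3′ as DNA of the sense strand, with bases in Watson-Crick pairs with miR396 in capitals and all other bases, G:U pairs included, in lower case.
GRF1 (chr2:9729944-9729965, plus strand, exon 3 of 4): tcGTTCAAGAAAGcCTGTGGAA
GRF2 (chr4:17726404-17726425, minus strand, exon 3 of 4): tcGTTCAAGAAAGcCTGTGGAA
GRF3 (chr2:15271745-15271766, minus strand, exon 3 of 4): CcGTTCAAGAAAGcCTGTGGAA
GRF4 (chr3:19617293-19617314, minus strand, exon 3 of 4): CcGTTCAAGAAAGcCTGTGGAA
GRF7 (chr5:21795145-21795166, plus strand, exon 2 of 3): tcGTTCAAGAAAGCaTGTGGAA
GRF8 (chr4:12538649-12538670, plus strand, exon 5 of 6): tcGTTCAAGAAAGCaTGTGGAA
GRF9 (chr2:18746292-18746313, plus strand, exon 3 of 5): AcGTTCAAGAAAGCtTGTGGAA

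All 7 matches lay in the coding sequence, and in each 17 bases separated the match from the codon of the last histidine of the first WRC zinc finger, found by its spacing of 3 cysteines and 1 histidine. GRF9 had 2 zinc fingers of this spacing, and the other 8 GRFs had 1. The same stretch of GRF5 and GRF6, counted from their own zinc finger, follows with the bases identical to GRF3 at the same position in capitals. Compared base by base without gaps, it shared 15 of 22 bases with GRF3 in GRF5 and 7 of 22 in GRF6. The run AAGAAAGCCT of GRF3 is also whole in the GRF6 stretch, but further along, behind other bases that follow CCGTTC. It is mostly in lower case because its position differs, so 7 of 22 understates the likeness. The best miR396 match anywhere in the transcripts, with at most 1 bulged base, had 7 differences in GRF5 and 6 in GRF6.
GRF5 (chr3:4609155-4609176, plus strand, exon 2 of 4): CCGTgCcAGAAAatCTcTtGAt
GRF6 (chr2:2426780-2426801, plus strand, exon 2 of 3): CCGTTCttcctcaagaaaGcct

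**Figure D1:**
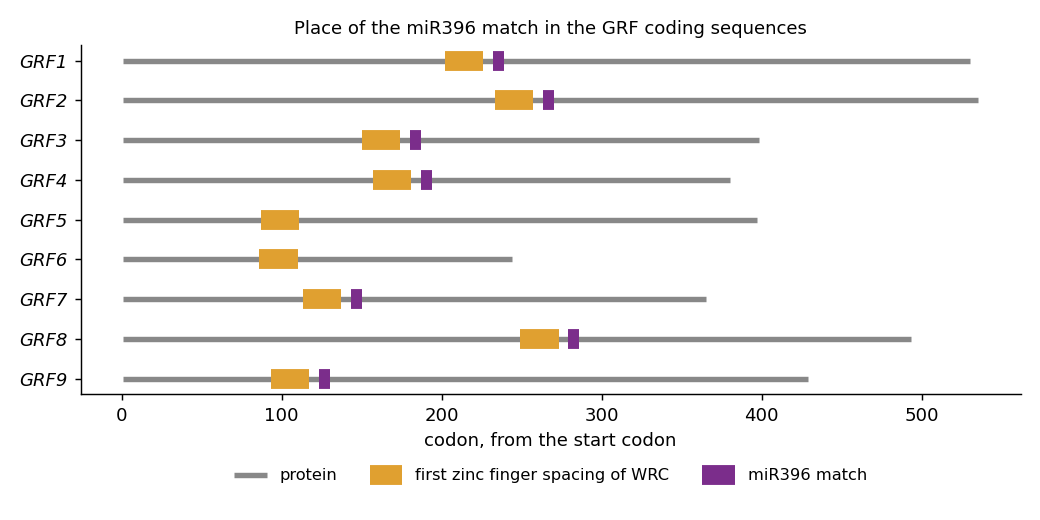
Codons from the start codon (x axis) for each GRF: grey, the protein; orange, the span of the first zinc finger of the WRC domain; purple, the miR396 match. The match stands at the same distance behind the zinc finger in 7 GRFs and is absent from GRF5 and GRF6.

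GIF1 was the most abundant of the 10 genes. Also called ANGUSTIFOLIA3, it encodes the coactivator that promotes cell division in young leaves and floral organs. The gene (AT5G28640) lies on chromosome 5 at 10647467 to 10650066 on the minus strand of TAIR10.1, with 4 exons. It stood at 89.0, 81.8 and 93.3 TPM in libraries 1, 2 and 3, a mean of 88.0 ± 5.80 TPM (SD, n = 3), which was above 91.9% of all models. Every library held more GIF1 than the highest GRF, and GIF1 was 2.98 ± 0.347 times GRF3 per length. GIF2, its relative, stood at 67.8, 68.2 and 66.6 TPM, and GIF3 at 7.19, 7.55 and 7.20 TPM. GIF1 was thus higher than GIF2 in all 3 libraries, by 1.30 ± 0.101 times, and held 54.0% ± 1.97 of the summed GIF level. Genes on the opposite strand cover 27.8% of GIF2 exon bases and 8.15% of those of GIF3, and whether reads were counted by strand is not given in the sources used here. In whole inflorescences a lower level can mean fewer cells that express a gene or less RNA per cell, and these cannot be told apart.

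Among GRFs that hold the miR396 match, GRF3 and GRF4 had the highest levels. These are the closest pair of the family by protein, identical at 75.8% of the length of the shorter one. GRF3 (AT2G36400, chromosome 2, 15270088 to 15273115, minus strand), one of the redundant promoters of leaf cell division, stood at 34.4, 26.5 and 28.7 TPM in libraries 1, 2 and 3. GRF4 (AT3G52910, chromosome 3, 19615977 to 19618507, minus strand), which acts with its relatives in cotyledon and leaf growth, stood at 26.5, 26.9 and 29.6 TPM. GRF3 was above GRF4 in library 1 alone, so the pair did not differ beyond the spread between libraries.

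GRF1 and GRF2 form the next pair, identical at 62.3% of the shorter protein, and act redundantly with GRF3 in leaf growth. GRF1 (AT2G22840, chromosome 2, 9728480 to 9731301, plus strand) stood at 19.6, 22.3 and 26.0 TPM. GRF2 (AT4G37740, chromosome 4, 17725337 to 17727909, minus strand) stood at 12.9, 13.0 and 15.5 TPM. All 3 libraries held more GRF1 than GRF2, with a ratio of 1.64 ± 0.103. GRF2 is transcribed away from ANT, the organ growth gene of the AP2 class, with 11604 bases and 1 annotated gene between them. ANT stood at 62.1, 59.7 and 64.8 TPM, above GRF2 in every library.

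GRF7, GRF8 and GRF9 had low levels. GRF7 (AT5G53660, chromosome 5, 21794177 to 21796092, plus strand), known as a repressor of the osmotic stress gene DREB2A, stood at 6.20, 5.79 and 6.80 TPM. GRF8 (AT4G24150, chromosome 4, 12535972 to 12539576, plus strand) stood at 6.62, 6.53 and 5.39 TPM, from 42, 93 and 35 counts. GRF9 (AT2G45480, chromosome 2, 18745249 to 18747634, plus strand), described as a brake on leaf growth rather than a promoter, stood at 7.07, 5.46 and 5.68 TPM. The ranges of these genes overlap, and no order among them held in all 3 libraries. With coding length in place of transcript length, GRF7 at 5.48 to 6.39 TPM stood above GRF8 at 3.60 to 4.45 TPM. Of GRF7 exon bases, 14.2% lie within a gene of the opposite strand, against 1.51% or less in GRF1, GRF3 and GRF9 and 0 in the other members.

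Of the GRFs without the match, GRF5 was well above GRF6. GRF5 (AT3G13960, chromosome 3, 4608076 to 4610497, plus strand), which enlarges leaves when overexpressed, stood at 19.8, 13.9 and 20.1 TPM in libraries 1, 2 and 3. GRF6 (AT2G06200, chromosome 2, 2426176 to 2427355, plus strand), the shortest GRF with 244 residues, stood at 5.28, 7.67 and 8.96 TPM, from 19, 62 and 33 counts. GRF5 was the higher of the pair in all 3 libraries, though its ratio to GRF6 ran from 1.81 in library 2 to 3.76 in library 1. The range of GRF5 overlapped those of GRF1 and GRF2, and the range of GRF6 those of GRF7, GRF8 and GRF9. Apart from 8 of 1940 words of GRF5, no 36-base word of the 10 transcripts occurs in another counted transcript.

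**Figure D2:**
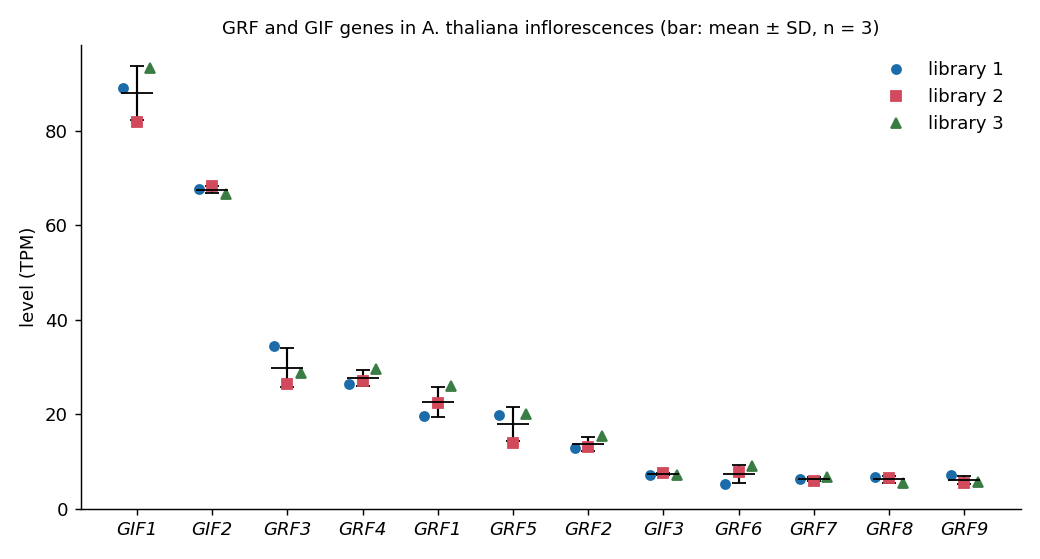
Level per length (TPM, y axis) of each GRF and GIF gene, ordered by mean; points are the 3 libraries, bars the mean ± SD. GIF1 and GIF2 stand above every GRF, 5 GRFs lie between 12.9 and 34.4 TPM, and 4 lie at 8.96 TPM or less.

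By mean level the order was GIF1, GRF3, GRF4, GRF1, GRF5, GRF2, GRF6, GRF7, GRF8 and GRF9. Of the 45 pairs of genes, 37 stood in the same order in every library and 36 had ranges that did not overlap. Both counts include GIF1 against each GRF, and the same counts were not made for pairs of other models. Between neighbours in the order, the ranges were separate at 3 of 9 steps: GIF1 over GRF3, GRF4 over GRF1 and GRF2 over GRF6. The ranges overlapped at the other 6. The steps from GRF4 to GRF1 and from GRF2 to GRF6 divide the GRFs into 3 groups whose ranges do not overlap: GRF3 and GRF4, then GRF1, GRF5 and GRF2, then the other 4. With coding length both steps remained, but ranges within the upper groups also separated. GRF3 at 25.5 to 33.1 TPM then lay above GRF4 at 22.1 to 24.6 TPM, and GRF5 at 13.9 to 20.1 TPM above GRF2 at 10.2 to 12.1 TPM. In counts not divided by length (CPM, scaled to a library total of 1000000), GRF1 at 25.4 to 34.1 overlapped GRF4 at 25.7 to 29.1 and had the higher mean, while the step below GRF2 remained. An exact two-sided sign-flip permutation test over the 3 libraries cannot give a p below 0.25 (adjusted p = 0.304 over 45 pairs), so none of these differences could pass a threshold. A mean of 10 TPM or more was reached by 6 of the 10 genes, and by 49.3% of all models. The median of the members was 15.9 TPM, against 9.55 TPM over all models, which include models without counts. Their median percentile was 59.2 among all models but 46.8 among models with a count in every library.

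The makeup of the GRF family was similar in the 3 libraries. GRF1 to GRF4 together held 67.5%, 69.3% and 68.0% of the summed GRF level, a mean of 68.2% ± 0.952. GRF3 took 24.9%, 20.7% and 19.5%, and GRF4 took 19.1%, 21.05% and 20.2%. The share without a miR396 match, from GRF5 and GRF6, was 18.2%, 16.8% and 19.9%. With 7 of the 9 GRFs holding a match, a majority share follows in part from their number. These 7 GRFs made up most of the summed GRF level in these inflorescences, and whether their share exceeds what their number gives was not tested. Their summed level was 112 ± 5.55 TPM, and that of GRF5 and GRF6 was 25.2 ± 3.79 TPM.

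**Figure D3:**
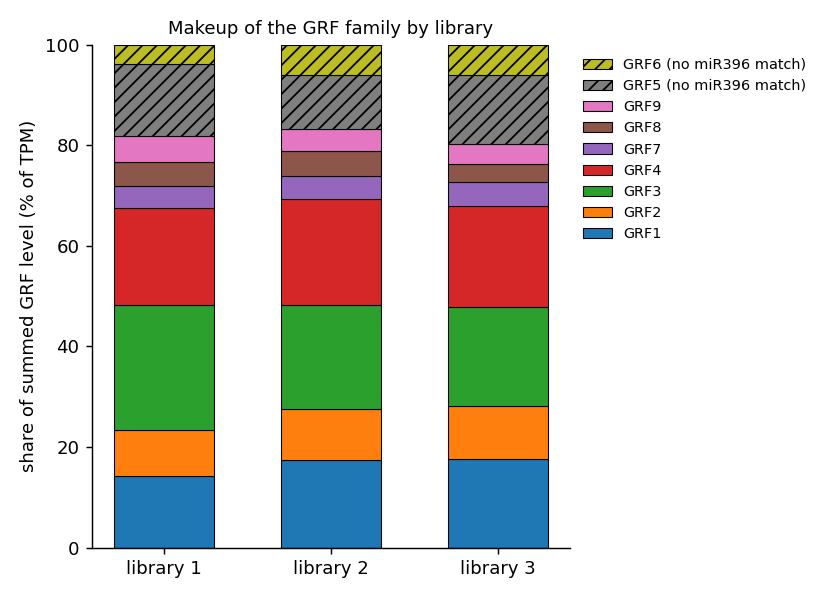
Share of each GRF in the summed GRF level (% of TPM, y axis) in each library; hatched segments are the GRFs without a miR396 match. GRF1 to GRF4 hold between 67.5% and 69.3%, and the hatched part between 16.8% and 19.9%.

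The ratio of GIF1 to the summed GRFs was similar in the 3 libraries. The 9 GRFs summed to 138, 128 and 147 TPM in libraries 1, 2 and 3, and GIF1 divided by that sum was 0.643, 0.639 and 0.636. Counting error of GIF1 alone was 4.05%, wider than the spread of these values. Their closeness is therefore finer than the counts can resolve, and a link between the genes was not tested. GIF1 and the GRF sum were each lowest in library 2 and highest in library 3. The value of this ratio rests on the transcript lengths, since untranslated regions make up 56.0% of the GIF1 transcript and 10.2% to 39.7% of the GRF transcripts. With coding length in their place it was 1.01.

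The members varied somewhat between the libraries. In CPM, the SD was a median of 12.3% of the mean over the 10 genes, against 7.59% over the 16140 models with at least 100 counts in all. Counting error alone gives a median of 8.04% for the 10 genes and 6.93% for those models. Of the 10 genes, 6 varied by more than their own counting error, as did 58.7% of the models, so this share is close to the background. GRF5 moved from 24.1 CPM in library 1 to 16.9 in library 2 and 24.8 in library 3. Its highest library was 1.47 times its lowest, with an exact 95% interval of 1.19 to 1.80. GRF1 was lowest in library 1 at 25.4 CPM, with 29.1 and 34.1 CPM in libraries 2 and 3, a ratio of 1.34 (1.09 to 1.66). GRF3 went another way, highest in library 1 at 40.2 CPM, with 31.1 and 33.96 CPM in libraries 2 and 3, a ratio of 1.29 (1.10 to 1.51).

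These 3 genes and GIF1, with a ratio of 1.15 (1.03 to 1.28), were the 4 of 10 members whose highest library lay above the lowest beyond counting error; 33.0% of all models with at least 100 counts did so. The intervals compare single libraries picked as highest and lowest and cover counting error only. Library 3 was the highest for 7 of the 10 members and for 37.5% of those models. Library 2 was the lowest for 5 members and for 32.8% of the models. Pollen genes differed between the libraries in the opposite order to the GRF sum. A list of 8 pollen genes, chosen after the values were seen, summed to 726, 977 and 458 TPM in libraries 1, 2 and 3. None was at 0, and 6 of them were highest in library 2 and all 8 lowest in library 3. VGD1, a pectin methylesterase of pollen tubes, stood at 323, 441 and 222 CPM. The part of pollen in the spread of the GRFs was not tested.

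**Figure D4:**
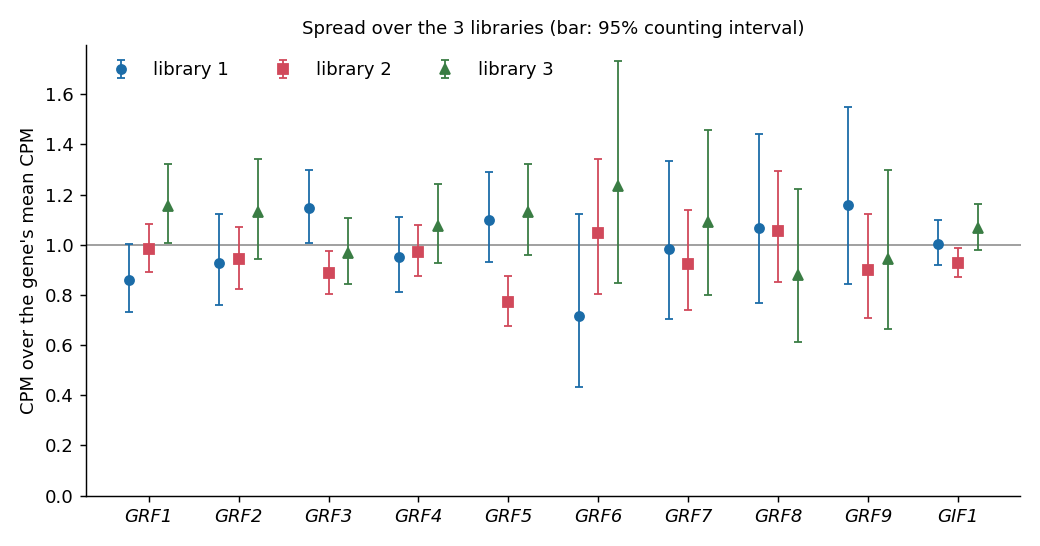
CPM of each gene in each library divided by its mean over the 3 libraries (y axis), with 95% exact Poisson intervals of the counts. GRF5 is low in library 2, GRF1 low in library 1 and GRF3 high in library 1, while the intervals of GRF6 to GRF9 are wide.

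Messages of the listed subunits of the partner remodellers were counted in every library, while proteins and complexes were not measured. All 13 listed SWI/SNF subunits had a mean of 10 TPM or more, against 49.3% of all models, with a list median of 31.9 TPM. The highest were SWP73B, a subunit found with GIF1, at 75.6 ± 5.42 TPM and ARP4, an actin-related subunit, at 72.9 ± 5.10 TPM. The lowest were CHR23, an ATPase of the class, at 13.9 ± 0.969 TPM and SWP73A at 10.7 ± 1.28 TPM. GIF1 lay just above SWP73B, with ranges of 81.8 to 93.3 and 70.2 to 81.0 TPM.

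TCP4, a class II TCP factor known to raise miR396, stood at 61.6 ± 1.24 TPM, above every GRF in each library. The bHLH gene AT1G10120 (bHLH74), a target of miR396 outside the family, stood at 36.8 ± 3.45 TPM. Its best miR396 match had 5 differences and no bulge, outside the limit used here. A gene of the opposite strand covers 32.8% of its exon bases.

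Genes reported elsewhere as targets of GIF1 or of GRFs spanned a wide range. A mean of 10 TPM or more was reached by 3 of 6, close to the 49.3% of all models. COL5, a CONSTANS-like factor whose gene GIF1 is reported to bind, was the highest at 121, 104 and 89.2 TPM in libraries 1, 2 and 3. The cytokinin response genes ARR4 and CRF2 stood at 21.7 ± 2.84 and 20.3 ± 0.244 TPM. KNAT2, a KNOX homeobox gene repressed by GRFs, stood at 7.71 ± 1.23 TPM and HEC1, a regulator of the pistil, at 5.53, 2.76 and 5.62 TPM. DREB2A, the target of GRF7, was the lowest at 1.53 ± 0.181 TPM.

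Of 10 regulators of organ size that act beside GRFs, 6 had a mean of 10 TPM or more, against 49.3% of all models. ANT was the highest at 62.2 ± 2.55 TPM, and CYCD3;1, a D-type cyclin, followed at 46.96 ± 3.57 TPM. ARGOS, an auxin-induced growth gene that acts through ANT, and NUB, a zinc finger gene of anthers and carpels, were the lowest at 1.32 ± 0.0171 and 1.003 ± 0.260 TPM. Both rest on few counts, with 5, 11 and 5 counts for ARGOS and 5, 10 and 3 for NUB.

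**Figure D5:**
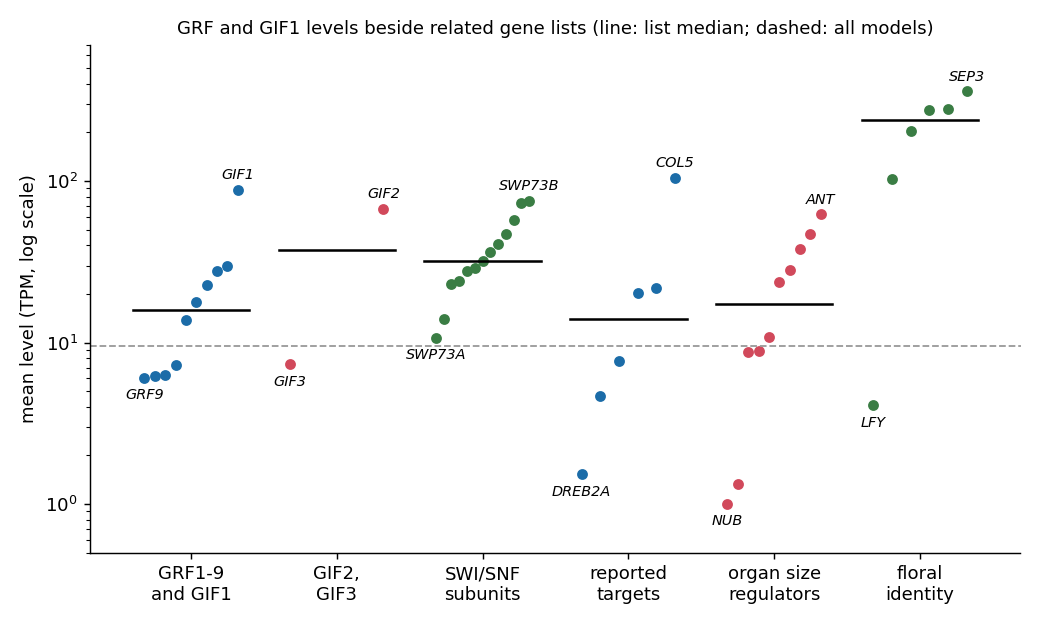
Mean level (TPM, log axis) of each gene in 6 lists, with the list median as a black line, the median of all models as a dashed line, and the lowest and highest gene of each list named. The GRF and GIF1 list runs from 6.07 to 88.0 TPM and the SWI/SNF list from 10.7 to 75.6 TPM.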

How the data were processed

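The authors deposited 1 table of raw counts per library, in whole numbers per gene model with unequal library totals. TAIR10 is the build named in the submitters' processing notes. Aligner, counting tool and use of strand: not given in the sources used here. Models were joined by name to the TAIR10.1 annotation of RefSeq, which gave names, positions and lengths: 26665 matched by model name, 25 by locus (longest transcript), and 486 had no length and entered CPM only. CPM used raw library totals and TPM the exon length of the counted model. Intervals cover counting error only. miR396 matches were searched in spliced transcripts, and proteins were aligned globally (BLOSUM62). The search and the intervals were tested on simulated data. Python 3.11.15, numpy 2.4.6, pandas 2.3.3, scipy 1.17.1, Biopython 1.88, matplotlib 3.10.9, and edgeR 4.0.16 in R 4.3.3 (scaling factors only) were used. Loci were named in the A. thaliana group alone, so conditions were not compared. Alternatives were TMM and RLE scaling, coding length, no length, other site limits and leaving out each library. All 10 members are named, with every gene of lists of up to 6 and the 2 highest and 2 lowest of longer lists; of the pollen list, added later and outside this rule, VGD1 alone is named. The members and lists were chosen with earlier results of these data known.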

Additional observations from a re-analysis of the deposited data

How the results depend on the processing

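TMM and RLE scaling moved no value by more than its spread between libraries, and no model held over 1% of counts, so leaving such models out was not run. Of 262 values recomputed under alternatives, 218 were classed as the same. For values with a spread between libraries, this meant a move smaller than that spread. Percentiles and counts of pairs or sites have no such spread. The count of 218 includes shares, ratios and orders within a library, which TMM and RLE scaling cannot change. It also holds the GIF1 level more than once per alternative, so it overstates how much was put to the test. Some ratios near 1 crossed it: GRF3 over GRF4 went from 1.08 to 0.976 without library 1, GRF7 over GRF8 from 1.03 to 0.912 without library 3, and the summed GRFs over the summed GIFs from 0.845 to 1.18 in CPM. GRF3 over GRF4 was 1.25 with coding length and 1.31 in CPM. Of 45 pairs, 43 kept the order of the means with coding length, 41 in CPM and 42 to 44 with 1 library left out. Coding length gave a summed GRF level of 119, a GIF1 level of 121, a ratio of GIF1 to the summed GRFs of 1.01 and of GIF1 to GIF2 of 1.81. Without length (CPM) these were 155, 78.2, 0.505 and 1.66, the share of GRF4 was 17.5% and that of GRF1 to GRF4 70.8%. The median percentile of the members among all models was 59.2; it was 63.8 in CPM, 46.8 among models with a count in every library, and 57.7 to 60.8 when 1 library was left out. With at most 3 mismatches and no bulge, 0 GRFs held a miR396 match, since every GRF match has a bulge; with at most 3 differences and a bulge allowed, a limit added after seeing the data, 7 did. Counts of GRF6, GRF7, GRF8 and GRF9, from 19 to 93 per library, limit what can be said of their order. No paired analysis was possible because no groups of samples were compared; the sign-flip test pairs genes within a library, not samples across groups.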
